A study of Mus musculus with 16 samples.

Results

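The genes described here are 36 members of the transforming growth factor beta (TGF-beta) superfamily and its secreted antagonists in the mouse, followed across 8 maps of the repressive histone mark H3K27me3. They were taken from a fixed list of symbols, and all 36 were found among the 21631 protein-coding genes annotated on the autosomes and X. The list holds 9 bone morphogenetic protein (BMP) ligands, the protease gene Bmp1, 10 growth and differentiation factor (GDF) ligands, 4 activin and inhibin subunits, Nodal with 2 Lefty genes, 3 TGF-beta ligands and 6 antagonists. H3K27me3 was profiled by ChIPmentation, in which a transposase adds sequencing adapters to chromatin held on the antibody beads, and the values are peaks called per library. The tested cells were CCN6KOT, mouse breast tumour cells of a CCN6 knockout model labelled as spindle metaplastic, given a dnTCF4 lentivirus, a dominant negative construct that blocks beta-catenin signalling (4 libraries). The control cells were CCN6KOT transduced with a control lentivirus, called PPGS in the labels (4 libraries). Cells of both groups carried the CCN6 knockout and were selected with puromycin. No label names the promoter that drives dnTCF4 or says whether the libraries of a group came from separate cultures or clones, so p-values measure only the spread between these libraries. IgG samples were not analysed here.

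Most ligands of this superfamily are secreted as dimers, bind pairs of type I and type II serine/threonine kinase receptors, and act through SMAD transcription factors. BMP ligands use a different set of SMADs from TGF-beta, activin and Nodal, most GDF ligands are divided between these branches, Gdf15 acts through another receptor, and secreted antagonists such as noggin, gremlin and follistatin hold ligands away from the receptors. In mammary epithelium TGF-beta restrains growth and can drive a switch to mesenchymal form, and in embryonic cells many genes of developmental signalling are Polycomb targets. H3K27me3 is written by the Polycomb enzyme EZH2 and is found at genes that are kept silent.

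A gene counted as marked in a library when a peak overlapped its annotated body, extended by 2 kb on each side, by at least 1 base. Of the 36 genes, 9 were marked in at least 1 library (25.0%), against a background of 21.4% of the other 21595 protein-coding genes. The marked genes were 5 of 9 BMP ligands (Bmp2, Bmp3, Bmp6, Bmp7 and Bmp8b), 2 of 4 activin and inhibin subunits (Inhbb and Inhbc), Lefty2 and the antagonist Nog. None of the 10 GDF ligands, none of the 3 TGF-beta ligands and neither Bmp1 nor Nodal carried a peak in any library. At least 2 libraries marked 6 of the 36 genes, against 14.9% of other genes, and at least 4 libraries marked 3 of them, against 5.18%. The members were shorter than other genes, with a median body of 10.4 kb against 17.3 kb, and no allowance for length was made in these shares.

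The promoters below belong to members whose peaks lay away from the start (Bmp8b, Inhbb and Inhbc) or to a BMP ligand with no peak near it (Bmp4). The peak at Bmp6 also lay away from the start, and the Bmp6 promoter is not shown. Each promoter shown runs from 250 bases before to 50 after the RefSeq start on build GRCm38.p6, 5′ to 3′, with CG dinucleotides in capitals. Bmp8b lies on the plus strand (chr4:123104911-123105210), and Inhbb (chr1:119422199-119422498), Inhbc (chr10:127370499-127370798) and Bmp4 (chr14:46390620-46390919) lie on the minus strand.
Bmp8b: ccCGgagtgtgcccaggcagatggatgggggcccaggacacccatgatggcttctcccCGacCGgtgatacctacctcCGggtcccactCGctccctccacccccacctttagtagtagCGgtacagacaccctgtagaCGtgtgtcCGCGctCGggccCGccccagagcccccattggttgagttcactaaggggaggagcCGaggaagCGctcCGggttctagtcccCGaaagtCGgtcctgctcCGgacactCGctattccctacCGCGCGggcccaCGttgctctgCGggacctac
Inhbb: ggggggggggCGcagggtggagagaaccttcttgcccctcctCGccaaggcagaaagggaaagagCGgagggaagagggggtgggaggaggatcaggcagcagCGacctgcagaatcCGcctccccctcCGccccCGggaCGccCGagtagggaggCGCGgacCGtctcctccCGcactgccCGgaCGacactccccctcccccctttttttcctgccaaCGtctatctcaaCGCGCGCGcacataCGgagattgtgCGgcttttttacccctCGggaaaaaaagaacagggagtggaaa
Inhbc: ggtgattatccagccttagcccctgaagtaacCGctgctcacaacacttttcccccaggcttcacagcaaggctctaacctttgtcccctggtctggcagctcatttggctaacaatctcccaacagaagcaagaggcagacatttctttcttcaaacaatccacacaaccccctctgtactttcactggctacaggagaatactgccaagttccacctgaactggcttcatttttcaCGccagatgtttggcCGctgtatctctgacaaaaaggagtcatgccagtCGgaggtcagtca
Bmp4: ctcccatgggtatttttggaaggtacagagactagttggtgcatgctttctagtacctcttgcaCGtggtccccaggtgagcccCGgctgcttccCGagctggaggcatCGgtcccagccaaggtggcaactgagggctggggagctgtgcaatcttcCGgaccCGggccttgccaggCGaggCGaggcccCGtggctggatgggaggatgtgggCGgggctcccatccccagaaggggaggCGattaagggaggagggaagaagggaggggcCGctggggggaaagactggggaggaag

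The motif counted in these windows was CG, which reads the same on both strands. The Bmp8b and Inhbb windows hold 23 CG each, a number reached by 21.5% of the 32851 promoter windows of the same length in the RefSeq table. The Bmp4 window holds 12 (reached by 39.6% of windows) and the Inhbc window 4 (reached by 68.6%). The table has such windows for 23 of the 36 genes, 25 windows in all with a median of 12 CG (from 1 at Gdf15 to 42 at Gdf10), where all windows have a median of 7. No peak of any library touched any of these 25 windows. How many of all 32851 windows a peak touched was not counted, so this result has no background at that width. Widened to 2 kb on each side of the start, the windows of these 23 genes still held no peak, where 12.4% of other genes with such windows held a peak in at least 1 library. Bmp1, Bmp2, Bmp3, Bmp7, Fst, Gdf3, Gdf5, Gdf6, Gdf9, Lefty1, Lefty2, Nog and Tgfb3 have no window in the table, so their peaks are placed from the lower and the higher annotated end of the gene. The result at starts thus leaves out Bmp2, Bmp3, Bmp7, Lefty2 and Nog, each marked in at least 2 libraries. The Nog peaks lay within 1.82 kb of both annotated ends, so within 2 kb of whichever end is the start. The annotation used gives gene bodies without exons, so peaks were not assigned to exons or introns.

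The 3 shortest peak lists marked no member and the longest marked the most. The dnTCF4 libraries held 21492, 191, 4885 and 1838 peaks and marked 6, 0, 3 and 2 of the 36 genes, in the order of their numbers. The control libraries held 426, 738, 54070 and 22745 peaks and marked 0, 0, 8 and 4. As shares, dnTCF4 1 marked 16.7% of the members (exact 95% binomial interval 6.37% to 32.8%) against 13.7% of other genes. dnTCF4 3 marked 8.33% (1.75% to 22.5%) against 5.12%, and dnTCF4 4 marked 5.56% (0.680% to 18.7%) against 2.40%. Control 3 marked 22.2% (10.1% to 39.2%) against 20.1%, and control 4 marked 11.1% (3.11% to 26.1%) against 12.5%. dnTCF4 2, control 1 and control 2 marked 0 of 36 (0% to 9.74%), where they marked 0.255%, 0.676% and 1.06% of other genes. The intervals were wide. They cover counting error only and treat the 36 genes as independent draws, which a chosen list is not. They are thus no test of the members against other genes.

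**Figure D1:**
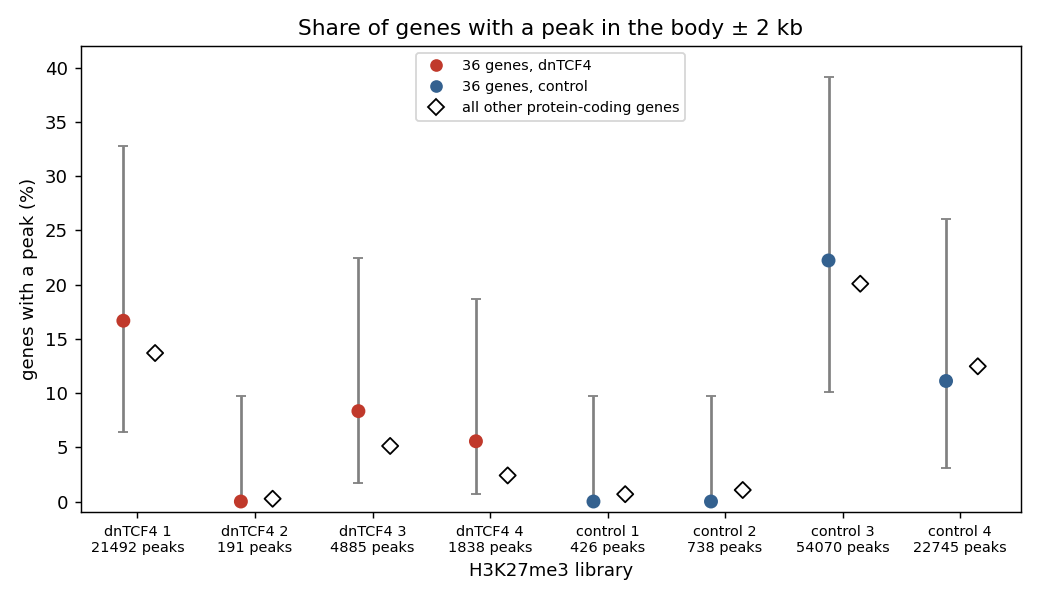
Share of genes with a peak in the gene body ± 2 kb (y axis, percent) in each H3K27me3 library (x axis, with its number of peaks). Filled circles are the 36 genes with exact 95% binomial intervals, and open diamonds are all other protein-coding genes, for example 20.1% beside 22.2% in control 3. The intervals are no test of this chosen list against other genes.

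The groups did not separate in this count. An average of 2.75 ± 2.50 members were marked in dnTCF4 libraries and 3.00 ± 3.83 in control libraries (SD, n = 4 each), and the ranges of 0 to 6 and 0 to 8 overlapped. The difference of -0.25 changed with single libraries: it was 0.667 without dnTCF4 2, 1.42 without control 3, 0.0833 without control 4 and 0 without dnTCF4 4. With the 5 libraries of at least 1000 peaks cut to lists of equal length (1838 peaks) it was 1.33, with means of 2.33 members in 3 dnTCF4 and 1 in 2 control libraries. The cut kept the whole list of dnTCF4 4 and only the most significant peaks of the longer lists. Any dnTCF4 library marked 6 members, against 13.9% of other genes, and any control library marked 8, against 20.4%. Both groups shared 5 of these (Bmp2, Bmp3, Bmp7, Lefty2 and Nog), against 12.9% of other genes marked in at least 1 library of each group. Peak number itself differed by -0.255 on the log10 scale (dnTCF4 minus control, two-sided exact permutation p = 0.714, n = 4 each, smallest possible p 0.0286). Measured as length, peaks covered 0.619%, 0%, 0.117% and 0.0339% of the summed member intervals in dnTCF4 libraries 1 to 4. In control libraries 1 to 4 they covered 0%, 0%, 0.963% and 0.226%. Of the intervals of all other genes, peaks covered 0.653%, 0.00388%, 0.123% and 0.0315% in dnTCF4 libraries 1 to 4. In control libraries 1 to 4 they covered 0.00927%, 0.0152%, 1.88% and 0.606% of those intervals. Covered length at the members was thus close to that of other genes in dnTCF4 1, 3 and 4 and lower than it in control 3 and control 4.

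**Figure D2:**
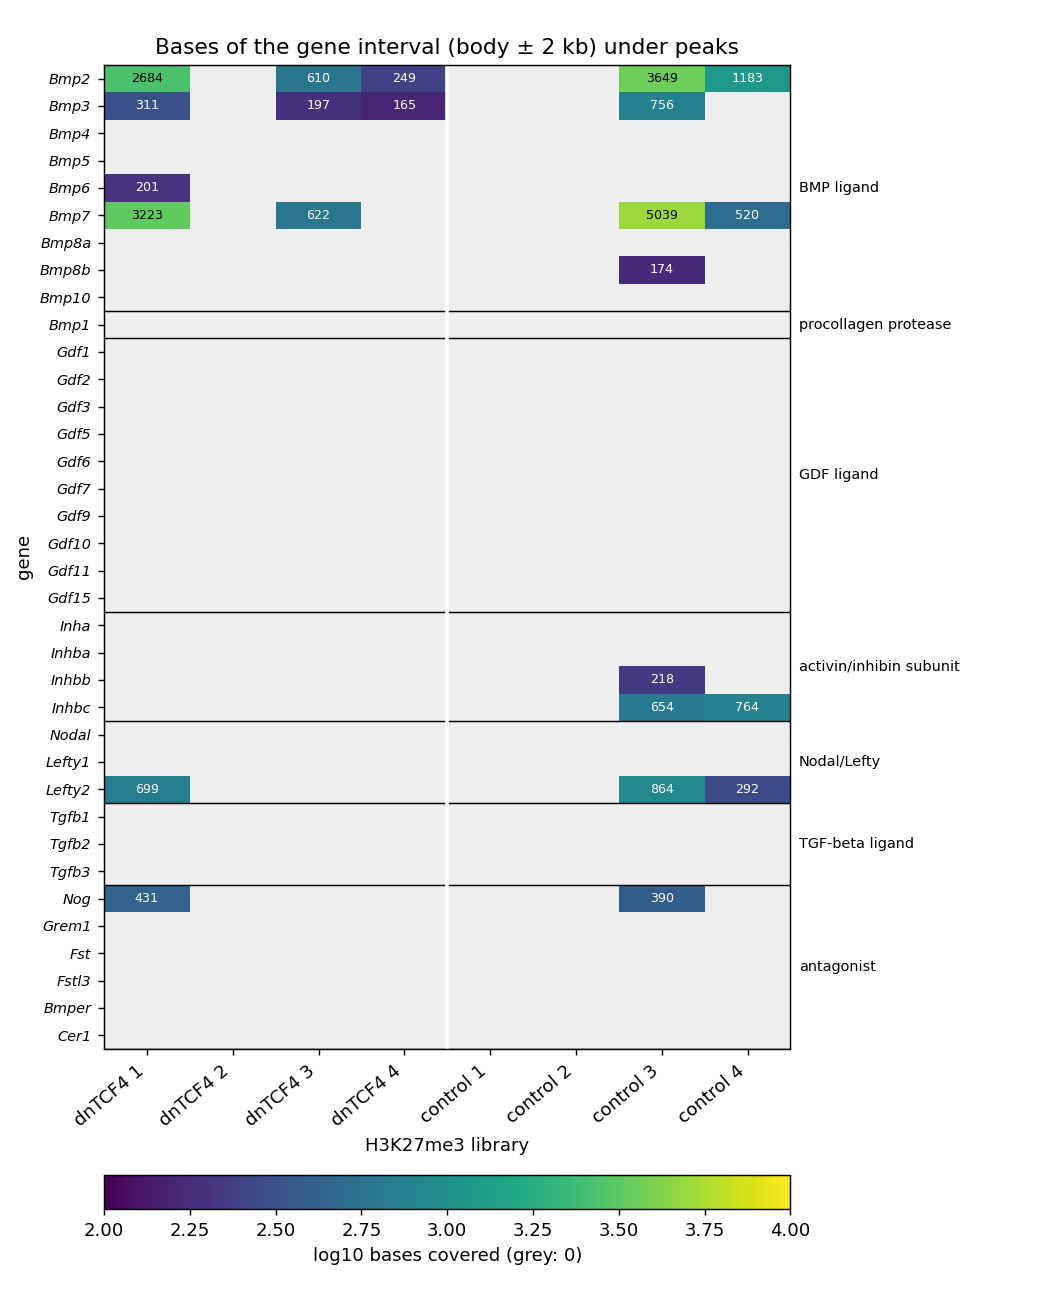
Bases of each gene interval (rows, grouped by role) under H3K27me3 peaks in each library (columns), printed in the cell and coloured on a log10 scale, with grey for 0. Cells are filled for 9 of 36 genes, most of all at Bmp2 and Bmp7, and dnTCF4 2, control 1 and control 2 are grey throughout.

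Among the BMP ligands, Bmp2, an inducer of bone and cartilage and a regulator of heart and limb formation, was marked in the most libraries. The gene lies on chromosome 2 from 133552159 to 133562896, and the nearest other protein-coding gene, Fermt1, lies 605 kb from its peaks. Peaks covered 2684, 0, 610 and 249 bases of its interval in dnTCF4 libraries 1 to 4, and 0, 0, 3649 and 1183 bases in control libraries 1 to 4. These are 18.2%, 0%, 4.14% and 1.69% of the interval in dnTCF4 libraries, against 0%, 0%, 24.8% and 8.03% in control libraries. The groups overlapped, with the most covered library in each being the one with its longest peak list. Marked libraries numbered 3 of 4 in dnTCF4 and 2 of 4 in control cells, while the mean covered share was 6.01 ± 8.31% in dnTCF4 and 8.20 ± 11.7% in control libraries (SD, n = 4 each), so the direction depended on the measure. With lists of equal length Bmp2 was marked in 3 of 3 dnTCF4 and 0 of 2 control libraries (Fisher's exact p = 0.1, the smallest this number of libraries allows). That cut kept the whole dnTCF4 4 list, with its Bmp2 peak at −log10 q 1.25. It dropped the Bmp2 peaks of control 3, the best of which had a −log10 q of 2.37. The cut thus set unlike thresholds on the libraries, and this split shows no change between groups.

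The Bmp2 peaks fell into 3 regions. Outside the gene, from -1.36 to -0.392 kb relative to its lower end, peaks were found in dnTCF4 1, control 3 and control 4 and shared 632 bases. Inside it, from 1.48 to 1.93 kb past that end, peaks were found in dnTCF4 1, 3 and 4 and in control 3, and shared 168 bases (133553793 to 133553960). Further in, from 2.84 to 5.43 kb, dnTCF4 1, dnTCF4 3, control 3 and control 4 had peaks of between 163 and 2477 bases. The peak with the highest −log10 q lay in the second of these regions in dnTCF4 1 (3.01, authors' fold enrichment 3.90), dnTCF4 3 (3.11, fold enrichment 5.05) and control 3 (2.37, fold enrichment 3.36). Those peaks stood at the 96.9th, 95.4th and 93.2nd percentile of −log10 q in their own lists. In dnTCF4 4 the region carried a weak peak, at the 11.6th percentile, and in control 4 none.

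Bmp3, an atypical BMP that opposes bone formation by other BMPs, carried a short peak at a fixed place. The gene lies on chromosome 5 from 98854415 to 98884053. Peaks covered 311, 0, 197 and 165 bases in dnTCF4 libraries 1 to 4, and 0, 0, 756 and 0 bases in control libraries 1 to 4. dnTCF4 1, 3 and 4 and control 3 were the marked libraries, and control 4, with the second longest list, had none, its nearest peak lying 115 kb away. All 4 marked libraries had a peak between 7.06 and 7.61 kb past the lower end, with 165 bases in common (98861608 to 98861772). It was among the most significant peaks of the whole list in dnTCF4 1 (−log10 q 5.49, 99.5th percentile) and control 3 (4.85, 99.7th percentile), and stood at the 96.2nd and 78.3rd percentile in dnTCF4 3 and dnTCF4 4. Control 3 had a further peak of 211 bases, 5.97 kb past the lower end.

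Bmp7, which is needed for kidney and eye development, lies on chromosome 2 from 172868012 to 172940321. Peaks covered 3223, 0, 622 and 0 bases in dnTCF4 libraries 1 to 4, and 0, 0, 5039 and 520 bases in control libraries 1 to 4. The covered share averaged 1.26 ± 2.01% in dnTCF4 and 1.82 ± 3.20% in control libraries (SD, n = 4 each), with 2 of 4 libraries marked in each group. Of its 15 peaks, 12 lay within 10 kb of the higher annotated end of the gene, from 9.86 to 1.59 kb inside it, where the lncRNA gene Gm40010 overlaps it. A separate peak lay 50.2 to 50.4 kb past the lower end in dnTCF4 1, control 3 and control 4, and these 3 peaks had 156 bases in common. That peak had a −log10 q of 1.87 in dnTCF4 1, 2.57 in control 3 and 4.43 in control 4, the last at the 99.4th percentile of its list. dnTCF4 4, which had a peak at Bmp2, had none at Bmp7, and its nearest peak lay 27.4 kb away.

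**Figure D3:**
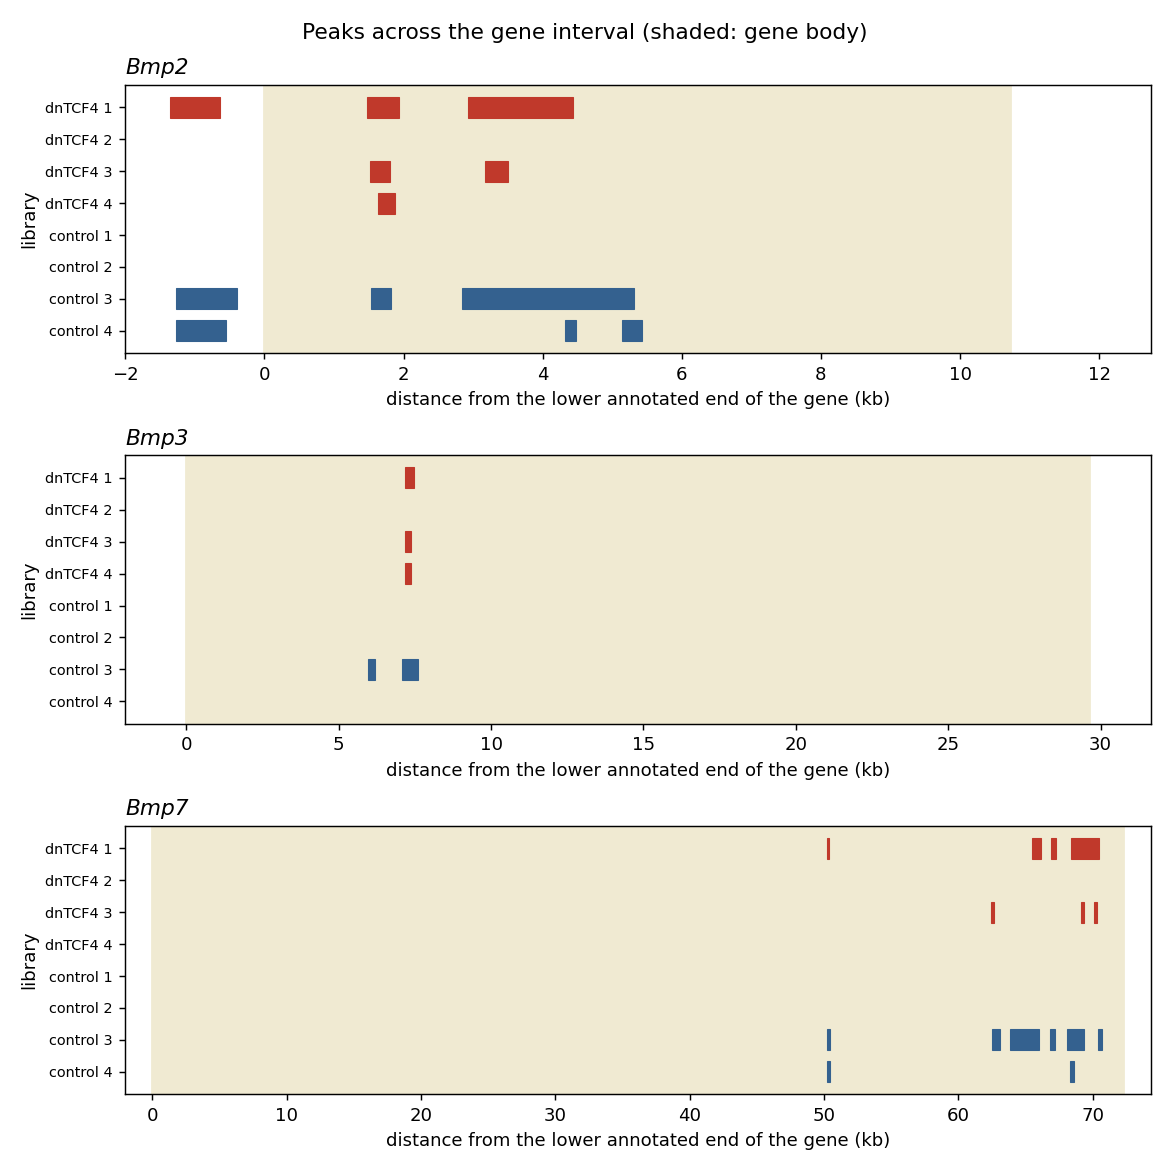
Peaks (bars) across the intervals of Bmp2, Bmp3 and Bmp7 in each library (rows, dnTCF4 above control), by distance from the lower annotated end of the gene (x axis, kb), with the gene body shaded. The bar between 7.06 and 7.61 kb recurs at Bmp3 in 4 libraries, and at Bmp7 most bars lie within 10 kb of the higher annotated end.

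Chromosome 2, which carries Bmp2, Bmp7, Gdf5 and Grem1, held more of the covered length than its annotated length would give in 7 of the 8 libraries, and most in dnTCF4 1, 3 and 4. It held 21.0%, 7.59%, 30.1% and 23.0% of covered length in dnTCF4 libraries 1 to 4, and 6.77%, 9.13%, 13.6% and 15.8% in control libraries 1 to 4. It makes up 6.92% of annotated length. The part of this share in the peaks at Bmp2 and Bmp7 was not tested. Gdf5, which shapes joints, and Grem1, which encodes the BMP antagonist gremlin, had no peak closer than 87.6 and 92.7 kb in any library.

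The other BMP ligands were marked in at most 1 library. Bmp6, an inducer of the iron hormone hepcidin in the liver (chromosome 13, 38345716 to 38500314), had a peak of 201 bases in dnTCF4 1, at −log10 q 1.57, which lay 133 kb past the gene's start. Bmp8b, known for its part in germ cell formation and in thermogenic fat (chromosome 4, 123104308 to 123126094), had a peak of 2006 bases in control 3, of which 174 bases reached into the interval. Control 3 alone marked 5.30% of other genes and dnTCF4 1 alone 0.912%. The nearest peak to Bmp8b in dnTCF4 1 lay 2.71 kb from the gene, just outside the 2 kb limit, while that of control 3 lay 1.83 kb away. The control 3 peak ended 2.43 kb from the promoter window printed above.

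No peak was found at Bmp4, Bmp5, Bmp8a or Bmp10. Bmp4, a regulator of mesoderm formation, had the largest distance to a peak when the smallest value over the 8 libraries is taken for each member. Among the 3 longest lists, Gdf7 lay farther in dnTCF4 1, at 4230 kb. In control 4 Gdf7, Gdf6 and Bmp1 lay farther, at 3106, 1478 and 1279 kb. The nearest peak to Bmp4 lay 1074 kb away in dnTCF4 1, 1057 kb in control 3 and 1076 kb in control 4. At least as far from a peak were 9.66%, 4.89% and 10.2% of the other genes that had no peak in any library, in the same order. Bmp4 was picked here for its distance, so these shares are no test of it. Chromosome 14, which carries Bmp4, Bmp1, Gdf2 and Gdf10, held 0.862%, 1.30% and 0.595% of covered length in these libraries and makes up 4.74% of annotated length, and its part in this was not tested. Bmp10, a ligand of the heart and of endothelium, lay just outside the limit in all 3 of these libraries, with a peak 2.43 kb away in dnTCF4 1, 2.47 kb in control 3 and 2.44 kb in control 4.

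The 10 GDF ligands carried no peak in any library, where 21.4% of other genes carried one. They include Gdf5, Gdf6 and Gdf7, which act in joints, bones and tendons, Gdf9 of the oocyte, Gdf11 of axial patterning and the stress hormone Gdf15. Only Gdf15 had a peak within 10 kb, at 7.19 kb in control 3, against 107 kb in control 4 and 305 kb in dnTCF4 1. For the remaining 9 the smallest distance in any library ranged from 37.5 kb (Gdf3) to 281 kb (Gdf7). The 27 members with no peak had median distances of 137, 81.6 and 137 kb in dnTCF4 1, control 3 and control 4. For other genes with no peak in any library the medians were 119, 66.03 and 134 kb, in the same order. The members without a peak thus lay at distances close to those of such genes, and the difference was not tested. A list without a peak does not show that the mark is absent.

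Peaks at activin and inhibin subunits lay in control 3 and control 4, and the difference from dnTCF4 libraries did not pass the test for either gene (exact p = 0.429 for Inhbc and 1 for Inhbb). Inhbc, an activin subunit of the liver (chromosome 10, 127356322 to 127370548), had 0 bases covered in each of 4 dnTCF4 libraries, and 0, 0, 654 and 764 bases in control libraries 1 to 4. The control 3 and control 4 peaks had 604 bases in common and lay 11.6 and 11.7 kb from the promoter window, near the far end of the gene. That of control 4 stood at the 90.4th percentile of its list and that of control 3 at the 26.6th. Inhbb, the activin beta-B subunit (chromosome 1, 119415463 to 119422248), was marked in control 3 alone, by 218 bases that lay 3.31 kb from the promoter window. Inha, the inhibin alpha subunit, had its nearest peak at 4.38 kb in control 3, and Inhba, the activin beta-A subunit, had none closer than 611 kb in any library.

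Of the genes of left-right asymmetry, Lefty2, an inhibitor of Nodal signalling (chromosome 1, 180893108 to 180899107), was marked. Peaks covered 699, 0, 0 and 0 bases in dnTCF4 libraries 1 to 4, and 0, 0, 864 and 292 bases in control libraries 1 to 4. The 3 peaks had 257 bases in common, inside the gene body. All were weak within their lists, at the 38.6th percentile in dnTCF4 1, the 17.6th in control 3 and the 39.2nd in control 4. Lefty1, its neighbour, had no peak closer than 38.8 kb. Nodal itself had a peak 4.75 kb away in dnTCF4 1 and 167 kb away in control 3.

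The TGF-beta ligands had no peak in their intervals. Tgfb1, the ligand best known for growth arrest of epithelium and for fibrosis, had its nearest peak at 12.7 kb in dnTCF4 1, 7.87 kb in control 3 and 88.5 kb in control 4. Tgfb2 had none closer than 51.8 kb and Tgfb3 none closer than 137 kb in any library. Bmp1, a metalloprotease that cleaves procollagen and chordin and is not a BMP ligand, had its nearest peak at 10.2 kb in control 3.

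Among the antagonists only Nog was marked. It encodes noggin, which binds BMP dimers, and lies on chromosome 11 from 89300638 to 89302559. Peaks covered 431, 0, 0 and 0 bases in dnTCF4 libraries 1 to 4, and 0, 0, 390 and 0 bases in control libraries 1 to 4. The peaks of dnTCF4 1 and control 3 had 390 bases in common, between 0.117 and 0.506 kb past the lower end of this 1.92 kb gene. Control 4 had a peak 3.85 kb from the gene, outside the limit. Grem1, Fst (follistatin, an activin trap), Fstl3 and Bmper had no peak closer than 62.7 kb in any library, and Cer1, an inhibitor of Nodal and BMP in the early embryo, had peaks 4.46 kb away in control 4 and 7.49 kb away in control 3.

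**Figure D4:**
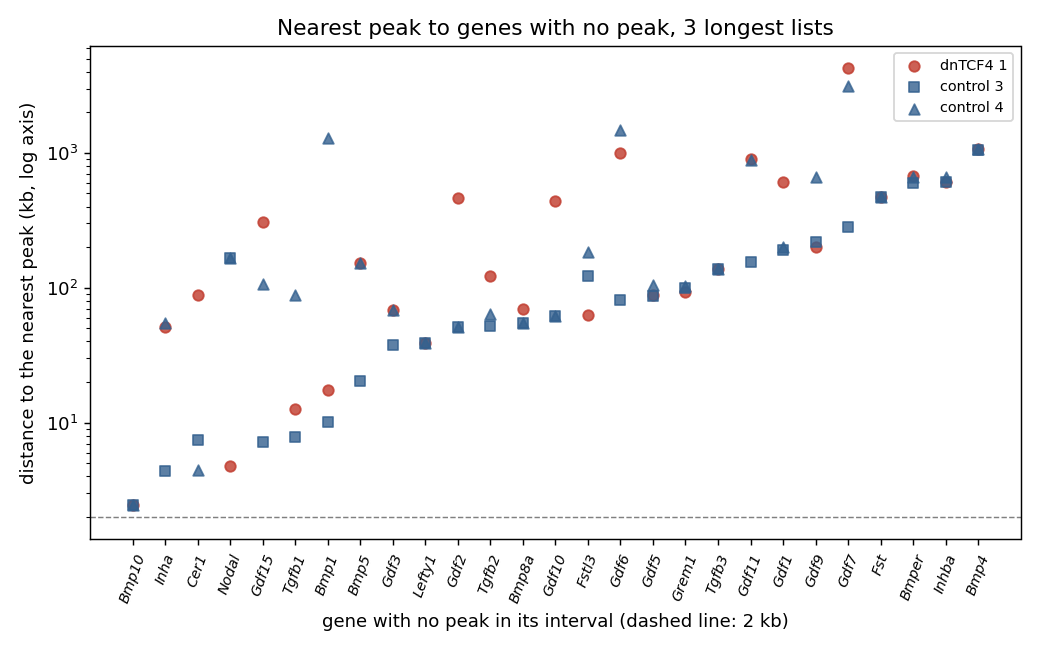
Distance from each of the 27 genes with no peak in its interval to the nearest peak (y axis, kb, log scale) in dnTCF4 1, control 3 and control 4, the 3 longest lists, with genes ordered by their smallest distance over all 8 libraries. Bmp10 lies just above the dashed 2 kb limit in all 3 lists and Bmp4 lies above 1000 kb in all 3.

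The peaks at these genes were short, as were the lists as a whole. The 42 peaks that touched a member interval had a median width of 350 bases (156 to 2477), 6 of them reached 1 kb and 0 reached 5 kb. Over all peaks of a list the median width was 485 bases in dnTCF4 1, 400 in dnTCF4 3 and 307 in dnTCF4 4. It was 595 bases in control 3 and 471 in control 4. The shares of all peaks that reached these widths, or the −log10 q limit below, were not counted. Their −log10 q had a median of 1.58 and ranged from 1.05 (Bmp7, control 3) to 5.49 (Bmp3, dnTCF4 1), and 12 of 42 reached 2. Ranked among all peaks of their own library, 27 of 42 lay above the median. The lists' own scale differs between libraries, so these ranks place a peak within its list and show no change between groups.

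**Figure D5:**
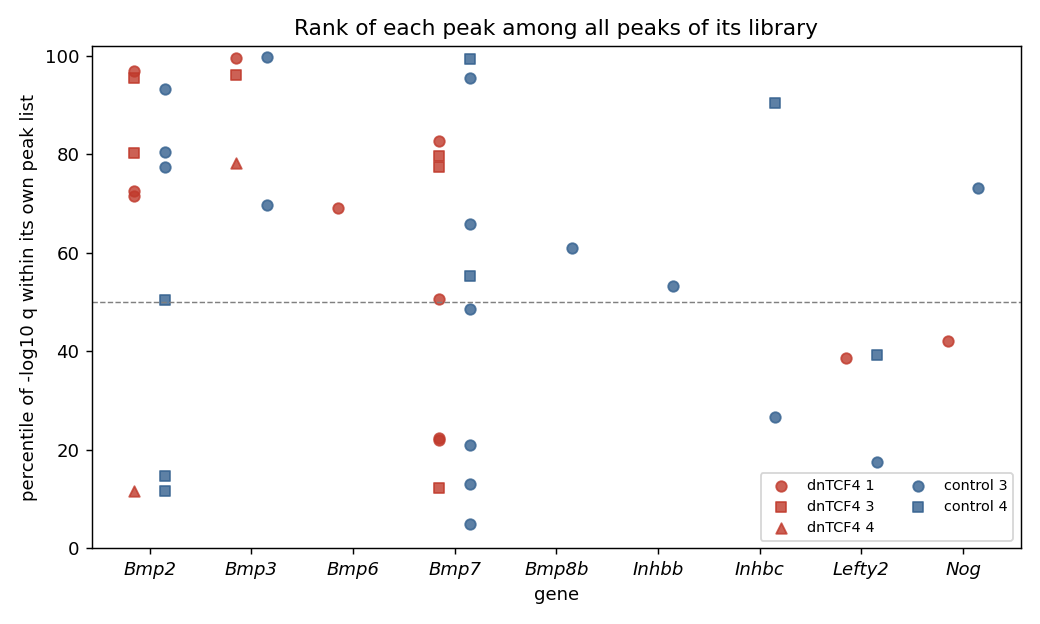
Percentile of −log10 q within its own peak list (y axis) for each of the 42 peaks, by gene (x axis), with dnTCF4 libraries left of control libraries. The recurrent Bmp3 peak reaches the 99.5th percentile in dnTCF4 1 and the 99.7th in control 3, and the 3 Lefty2 peaks all lie under the dashed median line.

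No member passed a test of the difference between dnTCF4 and control libraries. Fisher's exact test (two-sided, number of libraries with a peak) was run over the 4626 protein-coding genes marked in at least 1 library, with Benjamini-Hochberg adjustment over all of them. It called 0 genes (0% of those tested), and 0 genes had an unadjusted p under 0.05. Among the members the lowest exact p was 0.429 for Inhbc (0 of 4 dnTCF4 and 2 of 4 control libraries), followed by 0.486 for Bmp3 (3 of 4 dnTCF4 and 1 of 4 control libraries). The other 7 had an exact p of 1, and the adjusted exact p was 1 for all 9. The exact permutation test of the percent of the interval covered called 0 of the same genes, had 1 gene with an unadjusted p under 0.05, and gave the members p from 0.429 (Inhbc) to 1. With 4 libraries against 4 the smallest p is 0.0286, and 2644 genes would have to reach it for any to pass the adjustment. More dnTCF4 than control libraries marked 3 of the 36 members (Bmp2, Bmp3 and Bmp6), against 2.47% of other genes, and more control than dnTCF4 libraries marked 4 (Bmp8b, Inhbb, Inhbc and Lefty2), against 13.2%. At least 3 dnTCF4 libraries marked 2 of the 36 (Bmp2 and Bmp3), against 1.99% of other genes.

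Other genes of the pathway were marked in the same 5 libraries, and in none of dnTCF4 2, control 1 and control 2. Of 19 receptors and coreceptors, 5 were marked in dnTCF4 1, 3 in dnTCF4 3, 1 in dnTCF4 4, 5 in control 3 and 4 in control 4. These were Acvrl1, the endothelial type I receptor for BMP ligands (3 dnTCF4 and 2 control libraries), Acvr1c and Hjv, a BMP coreceptor (2 of each), Cfc1 (1 dnTCF4 and 2 control) and Tdgf1 (1 of each). Of 18 further secreted antagonists and modulators, 7 were marked in at least 1 library, led by Tll2, a relative of Bmp1 (3 dnTCF4 and 2 control libraries), and Sost (2 of each). Bambi, a decoy receptor, and Chrdl1, a chordin relative, were marked in 1 dnTCF4 and 2 control libraries each. Of 13 target genes, 1 was marked in dnTCF4 1, 5 in control 3 and 2 in control 4, with the homeobox gene Msx2 marked in 1 dnTCF4 and 2 control libraries and Msx1 in 0 and 2. Of the other ligands, Bmp15 was marked in 0 dnTCF4 and 2 control libraries, and Mstn, Inhbe and Amh in none. The 8 SMAD genes, which relay the signal, were marked in no library. The share marked in any library was 26.3% for receptors, 38.9% for these antagonists and 38.5% for targets, where 21.4% of genes outside the 36 members were.

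The labelled cell type could be set only against which marker genes carried the mark. Of 12 epithelial markers 8 were marked in at least 1 library (66.7%), where 21.4% of protein-coding genes outside the members were. Epcam was marked in all 8 libraries and Krt19 in only 1, while Krt8, Krt18, Cldn3 and Cldn4 were marked in none. Of 11 mesenchymal markers 0 were marked, among them Vim, Zeb1 and Twist1. Of 5 immune and 4 endothelial markers 2 each were marked (Ptprc and Cd3e, Kdr and Tek), and 0 of 15 housekeeping genes were. Over the 28 pairs of libraries at most 1 peak had identical bounds, so no list was a copy of another.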

How the data were processed

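H3K27me3 was mapped in CCN6KOT cells transduced with dnTCF4 or control lentivirus, 4 libraries each, from chromatin fixed in 1% formaldehyde and 4 micrograms of antibody, per the labels' protocols. The submitters' processing notes name MACS2 2.1.2, Bowtie2 2.3.4.1 and build mm10 among their tools. They give no options and do not say whether IgG served as control. The authors deposited 1 peak list per library with a score, a fold enrichment (ratio over background), a −log10 p and a −log10 q per peak. The score equalled 10 times −log10 q truncated to a whole number for 106378 of 106385 peaks, and the lowest −log10 q was 1.006. These values are the authors' own and served only to describe or filter peaks within a list. The lists hold no read counts, so depth is unknown and the mark may be present where no peak was called.

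Gene bodies came from RefSeq (GRCm38.p6). Peaks were intersected with the bodies extended by 2 kb in Python 3.11.15 with NumPy 2.4.6, pandas 2.3.3 and SciPy 1.17.1. The tests were Fisher's exact test over genes with a peak and exact permutation over 70 assignments. In simulated lists 200 genes were planted with a peak in 4 libraries of 1 group and 0 of the other. This gives the smallest p by construction, so that all 200 reached it checks the code only. Of these, 0 passed adjustment over 9840 genes. The simulation drew libraries independently, and in the data 4626 genes were tested. The members, the gene lists and the tests were chosen with earlier results of these data known. Members marked in at least 2 libraries were given per library and others by count or distance; the promoters of Bmp8b, Inhbb and Inhbc were chosen after their values were seen. Alternatives were other intervals, covers, peak thresholds, equal lists, left-out libraries and a replicate block.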

Additional observations from a re-analysis of the deposited data

Results flagged for a closer look

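In 8 of 24 sets of 4 libraries, 1 library lay apart from the other 3 by Dixon's test. The sets with all 4 libraries at 0 (dnTCF4 at Bmp8b, Inhbb and Inhbc, control at Bmp6) are among the 24 but could not be tested. All 8 were bases covered at a single gene. In 7 of them the other 3 libraries were at 0, where the test marks any value above 0, so its usual rate of about 1 in 20 sets by chance does not apply and the number of sets says nothing. In dnTCF4 libraries these were dnTCF4 1 at Bmp6 (201 bases), Lefty2 (699 bases) and Nog (431 bases), with the other 3 libraries at 0. In control libraries these were control 3 at Bmp3 (756 bases), Bmp8b (174 bases), Inhbb (218 bases) and Nog (390 bases), with the other 3 at 0, and at Bmp7 (5039 bases), where control 4 had 520 bases. dnTCF4 1 and control 3 hold the longest peak list of their group, and the part of list length in these values was not tested.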

How the results depend on the processing

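The number of members marked in at least 1 library, 9 in the main setting, moved with the definition of a mark, and so did the share of other genes. It was 5 with at least 500 bases covered (17.1% of other genes), 15 with bodies extended by 10 kb (33.2%), 4 with a −log10 q of at least 2 (9.37%) and 3 with lists of equal length (1838 peaks, 5 libraries, 6.15%). It was 0 of 23 within 2 kb of annotated starts (12.4% of other genes), with a mean of 0 members per dnTCF4 library. These 23 genes leave out Bmp2, Bmp3, Bmp7, Lefty2 and Nog, which have no annotated start here. The number was 3 without the 3 longest lists (5.71% of other genes), an alternative chosen after seeing the data. Leaving out single libraries gave 7 to 9. The mean difference in marked members (dnTCF4 minus control) was -0.25 and ran from -1.33 to 1.42 with single libraries left out, the highest without control 3. It was -1.50 with bodies extended by 10 kb, 1.33 with lists of equal length and 1.67 without the 3 longest lists. The difference in log10 peak number turned to 0.115 without dnTCF4 2, to 0.107 without control 3 and to 0.329 without the 3 longest lists, and ran from -0.594 to 0.115 over left-out libraries. Bmp2 and Bmp3, marked in more dnTCF4 libraries, turned to -2.19 and -0.0617 percentage points of the interval covered, with or without the replicate block, and Bmp3 turned to -0.25 in share of libraries with at least 500 bases covered. In share of libraries Bmp2 stood at 0.25, against 1.00 with lists of equal length and 0.667 without the 3 longest lists, and Bmp3 at 0.50, against 0.50 and 0.667. The cut to equal length kept the whole dnTCF4 4 list and dropped the Bmp2 peaks of control 3 and control 4. The cause of these changes was not tested. Whether libraries of the same number share anything beyond that number is not known. Deviations of same-numbered libraries correlated at -0.774, 0.765, -0.248 and -0.502, too few and too mixed to decide it. With the replicate block (sign-flip test, smallest p 0.125) 0 genes were called, as under the other alternatives. The unadjusted count under 0.05 was 0 to 2 genes over all of them.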
